A study of Sus scrofa with 14 samples.

Results

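The circadian clock genes of pig adipose tissue were described here as 10 members named by symbol, namely ARNTL (also written BMAL1), CLOCK, PER1, PER2, PER3, CRY1, CRY2, NR1D1, NR1D2 and DBP. Of these 10, 9 had a row among the 21280 genes of the expression tables, of which 14821 carried a symbol. All 10 were placed on Sscrofa11.1 through RefSeq gene models. No gene of the tables was matched to PER3, so its expression is not analysed here and only its locus was followed in the Hi-C data. RNA-seq and Hi-C had been made from the greater omentum (GOM, a visceral fat depot) and the upper layer of backfat (ULB, a subcutaneous fat depot) of 4 female pigs aged 2 years. For each assay 7 libraries were used, 2 of wild boar (WB) GOM, 2 of WB ULB, 2 of Bama pig (BM) GOM and 1 of BM ULB. All pigs were healthy, were kept in single pens under the same feeding and were killed after a fast. The wild boars were wild-born animals kept captive since youth. The Bama pigs, a fatty Chinese breed, were not from an inbred line.

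The mammalian clock is a feedback loop of transcription that runs in almost every cell, fat cells included. ARNTL and CLOCK pair on E-box elements and switch on the PER and CRY genes, whose proteins come back to block that pair, and on DBP and both NR1D genes, whose REV-ERB proteins in turn silence ARNTL. As a result ARNTL transcripts peak on the opposite side of the day from those of DBP and NR1D1, and in adipose tissue the loop sets daily rhythms of lipid storage and release. A transcript level of such a gene depends on the hour at which a tissue was taken. That hour is not given in the sources used here, and each pig was killed once, so breed, pig and hour of sampling cannot be told apart in what follows.

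The expression tables held estimated counts and TPM (transcript abundance scaled by transcript length and library). Between 10833153 and 18627076 estimated counts were assigned per library. TPM values of the listed genes summed to between 774260 and 956616, so TPM gives levels, ranges and order between genes here. Counts were used for tests and, normalised by trimmed mean of M-values (TMM, as CPM), for the differences between libraries given as TMM log2. The order of libraries within a gene is that of TPM unless TMM is named. Pearson r and the contrast of activators and repressors also use TPM. Over all genes the median WB minus BM difference in GOM was -0.57 (log2) on the TPM scale and 0.01 on the TMM scale. The libraries are named by the number in their labels, and no source used here says that equal numbers in GOM and ULB mark the same pig. Adipocyte markers were high in every library, with 6 of 6 markers summing to between 9002.0 and 16802.3 TPM. The WB ULB library numbered 1 stood apart in skeletal muscle markers, of which 3 of 5 listed had a row. They summed to 290.9 TPM there and to between 2.0 and 6.4 TPM in the other 6 libraries. The BM GOM library numbered 1 correlated better across 14163 genes with BM ULB 2 (Spearman rho of 0.931) than with BM GOM 2 (0.92). Macrophage markers (6 of 6) summed to between 325.7 and 1183.0 TPM, the 2 mesothelial markers with a row (of 6 listed) to between 112.1 and 436.3 TPM in GOM and between 2.6 and 10.6 TPM in ULB. Liver markers other than APOA1 (5 of 5) summed to between 104.4 and 1056.8 TPM in BM and between 5.9 and 10.4 TPM in WB, APOB was called lower in WB in GOM (edgeR adjusted p of 0.0455) and ALB in ULB (0.0416), and APOA1 lay between 146.24 and 226.60 TPM in all libraries. The part of these other cells in the results below was not tested.

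NR1D2 had the highest TPM of the 9 genes in all 7 libraries, and NR1D1 had the lowest TPM in 5 of 7. The genes differed in how far they moved between libraries. On the log2(TPM + 0.1) scale the range over the 7 libraries was 4.80 for NR1D1, wider than for 98.4% of 14163 expressed genes, and 0.87 for ARNTL, wider than for only 9.3% of them. The median gene had a range of 1.58. On the TMM scale the range was 4.11 for NR1D1 (wider than for 93.8% of 17877 genes) and 1.11 for ARNTL (27.1%), with a median of 1.64. In bulk tissue, fewer cells of a type and less RNA per cell cannot be told apart.

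**Figure D1:**
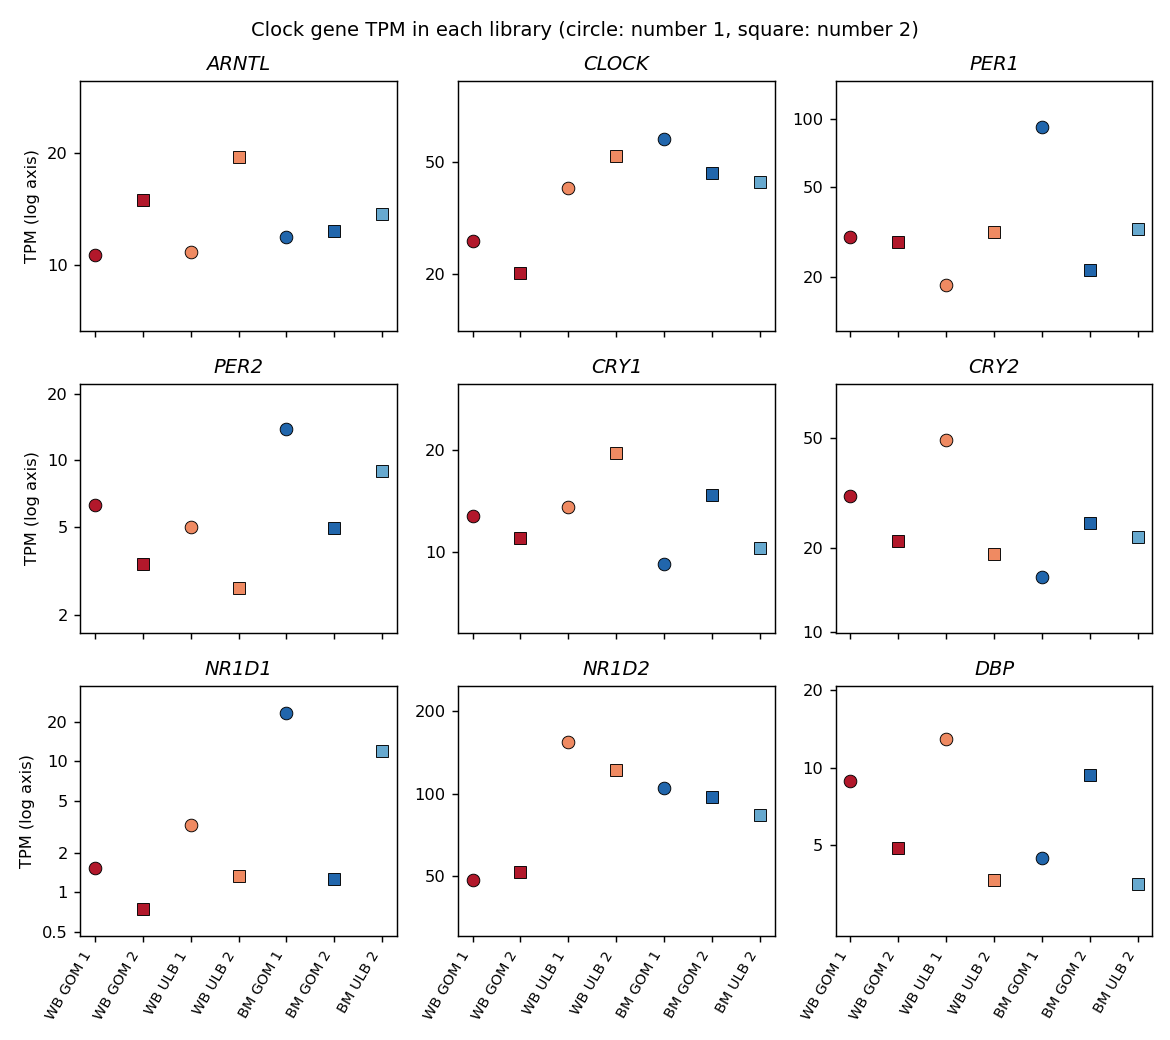
TPM (log axis) of the 9 clock genes with a row in the tables, with 1 point per library (WB in red, BM in blue, GOM dark, ULB light, circles for libraries numbered 1 and squares for those numbered 2). NR1D1 spans 0.74 to 23.38 TPM with BM GOM 1 and BM ULB 2 on top, and ARNTL spans only 10.63 to 19.57 TPM.

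ARNTL (ENSSSCG00000013397, chr2:45895637-46025174 on the minus strand of Sscrofa11.1) encodes the partner in the activating pair that the loop cannot do without. It reached 10.63 and 14.97 TPM in WB GOM, 10.86 and 19.57 TPM in WB ULB, 11.89 and 12.36 TPM in BM GOM and 13.71 TPM in BM ULB, each pair given as number 1 and then number 2. The highest library was 1.84-fold above the lowest, and the library numbered 2 was the higher of each pair. On the TMM log2 scale its lowest library was BM GOM 1 (3.90) and its highest WB GOM 2 (5.01). The 250 bases before its start (RefSeq model, Sscrofa11.1, chr2:46025175-46025424, minus strand) are printed because this is the gene that REV-ERB proteins silence. Capitals mark a match to TNGGTCA on either strand, a loose pattern for the core of the ROR and REV-ERB element. N is any base in it, so a match need not be such an element. The match reads TTGGTCA and begins 180 bases before the start. Another match, TAGGTCA, begins 96 bases after the start and is not printed.
ARNTL: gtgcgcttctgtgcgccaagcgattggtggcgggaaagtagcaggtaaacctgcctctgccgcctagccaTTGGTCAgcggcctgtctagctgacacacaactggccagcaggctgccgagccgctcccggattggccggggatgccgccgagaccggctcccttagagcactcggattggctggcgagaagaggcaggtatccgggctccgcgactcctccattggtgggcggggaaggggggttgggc
The pattern was found within 250 bases before and 50 after the start in 4 of the 10 clock genes and in 10.2% of 19525 protein-coding genes. Between 1000 bases before and 1000 after the start it was found in 8 of 10 clock genes and in 52.7% of 19524 genes. A match describes letters only, and binding was not measured.

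CLOCK (ENSSSCG00000008909, chr8:54793323-54910192, minus strand), the partner of ARNTL, reached 26.15 and 20.17 TPM in WB GOM, 40.51 and 52.56 TPM in WB ULB, 60.39 and 45.81 TPM in BM GOM and 42.34 TPM in BM ULB. Both WB GOM libraries lay below the 5 others. The ratio of CLOCK to ARNTL in TPM went from 1.35 in WB GOM 2 to 5.08 in BM GOM 1.

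Of the repressors, PER1 (ENSSSCG00000017983, chr12:53361863-53376723, minus strand), which besides the clock responds quickly to glucocorticoid and cAMP signals, reached 29.97 and 28.59 TPM in WB GOM, 18.44 and 31.66 TPM in WB ULB, 91.99 and 21.32 TPM in BM GOM and 32.69 TPM in BM ULB. A single library, BM GOM 1, stood above the rest, and the other 6 lay between 18.44 and 32.69 TPM. The 250 bases before its start (chr12:53376724-53376973, minus strand) are shown because they hold an E-box. Capitals mark the palindrome CACGTG, 93 bases before the start, and a match to the loose pattern TNGGTCA on the other strand, which begins 64 bases before it.
PER1: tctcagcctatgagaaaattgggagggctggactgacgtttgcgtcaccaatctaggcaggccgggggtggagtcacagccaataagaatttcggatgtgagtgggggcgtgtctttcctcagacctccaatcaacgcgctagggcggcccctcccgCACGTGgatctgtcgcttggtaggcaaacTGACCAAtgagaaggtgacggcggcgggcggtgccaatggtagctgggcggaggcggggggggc
CACGTG was found in this window in 2 of the 10 clock genes, PER1 and PER3, and in 7.93% of all protein-coding genes. Between 1000 bases before and 1000 after the start it was found in 5 of 10 clock genes and in 30.0% of 19524 genes.

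PER2 (ENSSSCG00000016338, chr15:137793419-137837854, minus strand), the other main PER repressor, reached 6.29 and 3.40 TPM in WB GOM, 4.99 and 2.64 TPM in WB ULB, 13.88 and 4.93 TPM in BM GOM and 8.95 TPM in BM ULB. BM GOM 1 and BM ULB 2 were the highest libraries, as for PER1 in TPM. On the TMM log2 scale WB GOM 2 (7.31) was above BM ULB 2 (7.25) for PER1. PER1 was above PER2 in all 7 libraries, by 3.65-fold to 12-fold in TPM.

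CRY1 (ENSSSCG00000000164, chr5:13275265-13429566, plus strand), the stronger repressor of the CRY pair in the core loop, reached 12.78 and 10.97 TPM in WB GOM, 13.59 and 19.63 TPM in WB ULB, 9.18 and 14.72 TPM in BM GOM and 10.29 TPM in BM ULB. CRY2 (ENSSSCG00000013270, chr2:16587101-16620380, minus strand) reached 30.82 and 21.31 TPM in WB GOM, 49.06 and 19.15 TPM in WB ULB, 15.79 and 24.73 TPM in BM GOM and 22.06 TPM in BM ULB. BM GOM 1, the top library for both PER genes, was the bottom library for both CRY genes. CRY2 was above CRY1 in 6 of 7 libraries, and their ratio in TPM ran from 0.976 in WB ULB 2 to 3.61 in WB ULB 1.

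PER3, the third PER gene, has a RefSeq model at chr6:68487634-68548718 on the plus strand. The 250 bases before its start (chr6:68487384-68487633) are shown because they hold both an E-box and a pair of D-boxes, the element TTANNTAA that DBP and its relatives bind and NFIL3 blocks.
PER3: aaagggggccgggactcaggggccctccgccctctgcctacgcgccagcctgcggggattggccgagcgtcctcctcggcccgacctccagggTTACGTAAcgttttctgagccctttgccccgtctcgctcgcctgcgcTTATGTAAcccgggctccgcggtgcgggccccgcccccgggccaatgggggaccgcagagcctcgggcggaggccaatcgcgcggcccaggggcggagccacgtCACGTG
Capitals mark the D-boxes, which begin 157 and 110 bases before the start, and the E-box, which begins 6 bases before it. D-boxes were found in this window in 1 of 10 clock genes and in 5.04% of all genes. The cAMP response element TGACGTCA was found in it in 0 of 10, against 2.26% of all genes.

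NR1D1 (ENSSSCG00000036933, chr12:22263549-22274131, plus strand) encodes REV-ERB alpha, a heme-binding repressor with one of the steepest daily rhythms known in fat and liver. It reached 1.52 and 0.74 TPM in WB GOM (47 and 28 estimated counts), 3.26 and 1.34 TPM in WB ULB (100 and 39 counts), 23.38 and 1.27 TPM in BM GOM (717 and 32 counts) and 12.04 TPM in BM ULB (308 counts). BM GOM 1 and BM ULB 2, which bear different numbers, were high, and BM GOM 2 was as low as the WB libraries. The highest level was 31.41-fold above the lowest. The stretch chr12:22263202-22263247 (plus strand) is shown for its E-box, in capitals, 327 bases before the start. It also holds TAGGTCA, a match to the loose pattern TNGGTCA, left in lower case, which begins 344 bases before the start.
NR1D1: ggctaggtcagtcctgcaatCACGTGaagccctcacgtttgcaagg

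NR1D2 (ENSSSCG00000027017, chr13:10756954-10791219, plus strand) encodes REV-ERB beta, the close relative of REV-ERB alpha. It reached 48.22 and 51.49 TPM in WB GOM, 154.18 and 121.89 TPM in WB ULB, 104.82 and 96.98 TPM in BM GOM and 83.76 TPM in BM ULB. Both WB GOM libraries were lowest and both WB ULB libraries highest, with the BM libraries of either depot between them. NR1D2 exceeded NR1D1 4.48-fold in BM GOM 1 and 91.1-fold in WB ULB 2, the ends of the range.

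DBP (ENSSSCG00000003148, chr6:53986955-53993044, minus strand), a D-box activator that carries the rhythm to output genes, reached 8.83 and 4.85 TPM in WB GOM, 12.94 and 3.65 TPM in WB ULB, 4.44 and 9.36 TPM in BM GOM and 3.54 TPM in BM ULB. BM GOM 1 and BM ULB 2, high for NR1D1 and PER2, were low for DBP. The 250 bases before its start (chr6:53993045-53993294, minus strand) are shown because DBP is the output gene followed below. Capitals mark matches to the loose pattern TNGGTCA, which begin 87 and 42 bases before the start and need not be ROR elements. CACGTG was not found within 1000 bases of the start on either side.
DBP: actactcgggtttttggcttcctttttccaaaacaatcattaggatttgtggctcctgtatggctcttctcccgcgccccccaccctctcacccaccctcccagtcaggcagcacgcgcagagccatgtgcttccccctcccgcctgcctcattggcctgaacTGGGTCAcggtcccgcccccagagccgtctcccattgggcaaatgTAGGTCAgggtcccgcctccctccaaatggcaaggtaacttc

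Whether activators and repressors stood in opposite phase was first asked between the WB libraries. In both depots ARNTL was lower in number 1 than in number 2, by a TMM log2 difference of -0.73 in GOM and -0.67 in ULB. DBP was higher in number 1 by 0.62 in GOM and 1.97 in ULB, NR1D1 by 0.77 and 1.42, PER2 by 0.65 and 1.08, and CRY2 by 0.30 and 1.53. CRY1 differed by -0.01 and -0.36 and PER1 by -0.17 and -0.61, while CLOCK and NR1D2 changed sign between the depots. In all, 7 of 9 clock genes differed in the same direction in both depots, where 52.0% of 17877 genes did. By more than 0.5 in both depots, 4 of 9 did (ARNTL, PER2, NR1D1 and DBP), where 12.5% of all genes did. On the TPM scale the direction in both depots was the same for 5 of 9 (45.8% of genes), with PER1 and CRY1 no longer among them. CRY2 took the place of ARNTL among the 4 of 9 beyond 0.5 (11% of genes).

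The same comparison was made for genes that act beside the 9. TEF, a D-box activator related to DBP, was higher in number 1 by 0.79 in GOM and 1.32 in ULB, and BHLHE41, an E-box repressor, by 0.92 and 1.91. HLF, the third D-box activator of that family, differed by -0.87 in GOM and 0.39 in ULB. Over the 7 libraries TEF had the second lowest Pearson r with ARNTL (-0.901) of 9268 genes with a symbol and a mean of at least 5 TPM, after RASSF5 (-0.936), and TRIB3 (0.968), GLE1 (0.954) and PTX3 (0.937) had the highest. For DBP the highest values were those of MMP28 (0.974), CYP2U1 (0.956) and SCNM1 (0.954) and the lowest that of SORT1 (-0.934). These values were picked as extremes among 9268 genes. Among the clock genes, ARNTL had r of -0.72 with DBP, -0.59 with PER2, -0.55 with CRY2 and -0.28 with NR1D1. With PER1 it had 0.03, with NR1D2 0.10, with CLOCK 0.12 and with CRY1 0.48. CLOCK had 0.60 with NR1D1 and 0.80 with NR1D2, and NR1D1 had -0.32 with DBP. Of 36 pairs 20 were positive and 16 negative, with a median of 0.07. Each r, in log2(TPM + 0.1), describes likeness over 7 libraries of 4 pigs and carries no test. No r was computed on the TMM scale, so size and sign are given for TPM only. On the TMM log2 scale BM GOM 1 was the lowest library for ARNTL (3.90), CRY2 (5.29) and DBP (2.37) alike. The highest there was WB GOM 2 for ARNTL and WB ULB 1 for CRY2 and DBP.

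**Figure D2:**
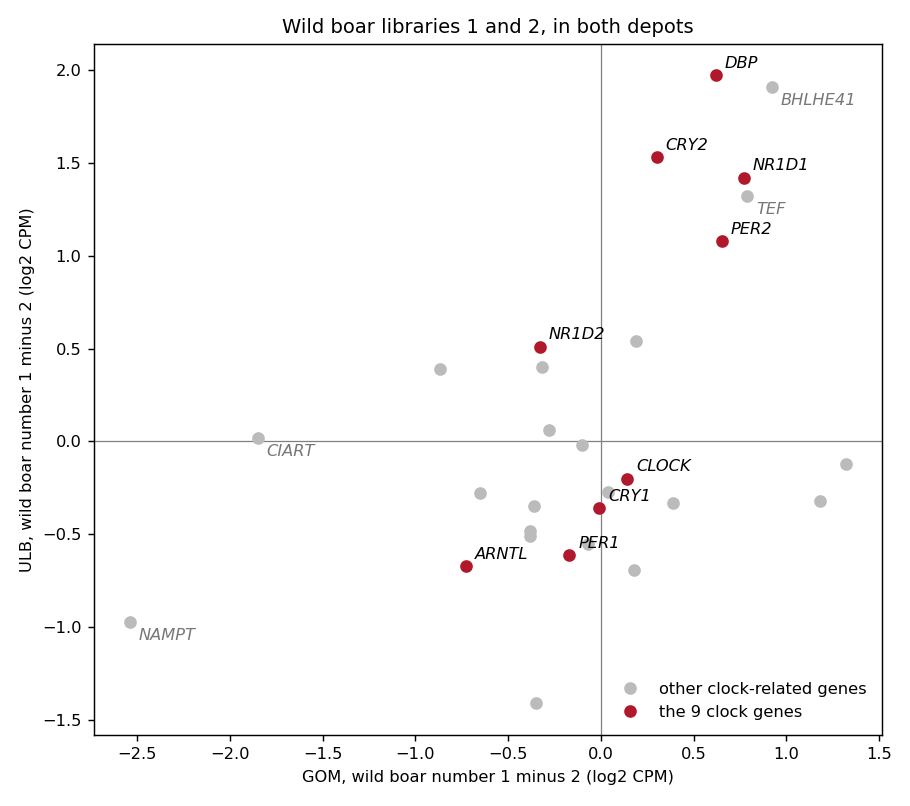
Difference between the WB libraries numbered 1 and 2 (log2 CPM after TMM) in GOM (x axis) and ULB (y axis), for the 9 clock genes in red and 20 other clock-related genes in grey. DBP, NR1D1, PER2 and CRY2 lie at the upper right (higher in number 1 in both depots) and ARNTL at the lower left.

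Other signals separated the same libraries. FKBP5, a direct glucocorticoid receptor target, stood at 40 and 240.97 TPM in WB GOM, 84.51 and 345.25 TPM in WB ULB, 468.57 and 55.79 TPM in BM GOM and 89.66 TPM in BM ULB. PDK4, which spares glucose in fasting and also responds to glucocorticoids, stood at 257.14 and 1363.19 TPM in WB GOM, 192.38 and 2967.59 TPM in WB ULB, 1570.65 and 308.71 TPM in BM GOM and 250.92 TPM in BM ULB. Both genes were high in WB GOM 2, WB ULB 2 and BM GOM 1 and low in the other 4 libraries. PCK1, the enzyme of glyceroneogenesis, was higher in WB number 1 by 2.89 in GOM and 2.76 in ULB on the TMM log2 scale. EGR1, an immediate early gene, was at 158.60 TPM in BM GOM 1 and 5.49 TPM in BM GOM 2. ZBTB16, also glucocorticoid-responsive, was split in the same way. It stood at 103.58 TPM in WB GOM 2, 113.72 TPM in WB ULB 2 and 165.93 TPM in BM GOM 1. In the other 4 libraries it lay between 38.50 and 52.10 TPM. Over all 7 libraries the rest of these lists did not follow a single order. Between the WB numbers most of the 7 glucocorticoid-responsive genes with a row did. FKBP5, ZBTB16, KLF9, DUSP1, PDK4 and CEBPD were lower in number 1 in both depots. The TMM log2 difference was -1.56 in GOM and -1.39 in ULB for ZBTB16, and -0.64 and -0.10 for DUSP1. SGK1 was higher in number 1, by 0.36 in GOM and 0.80 in ULB. The 7 genes summed to 1151.3 and 3110.6 TPM in WB GOM and to 1405.5 and 5066.2 TPM in WB ULB. FKBP5 and ZBTB16 were highest in BM GOM 1. Of the 6 immediate early genes with a row, EGR1 was highest in BM GOM 1, NR4A1 in BM ULB 2 and the other 4 in WB ULB 1, where the list summed to 968.9 TPM. Marker sums differed between the WB libraries too. Skeletal muscle markers were at 290.9 TPM in WB ULB 1 and 6.4 TPM in WB ULB 2, and at 2.0 and 3.8 TPM in WB GOM. In WB GOM, smooth muscle markers (4 of 4) summed to 131.2 TPM in number 1 and 763.8 TPM in number 2, and mesothelial markers to 436.3 and 112.1 TPM. The part of all these in the clock gene values was not tested.

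Between the BM GOM libraries the pattern was another. Number 1 exceeded number 2 by 4.01 (TMM log2) for NR1D1, by 1.99 for PER1 and by 1.37 for PER2. DBP went the other way, with a difference of -1.18, as did CRY1 with -0.80 and CRY2 with -0.76. ARNTL (-0.17), NR1D2 (-0.01) and CLOCK (0.28) stood close together. NR1D1 and DBP, which share the activating pair, were thus high in the same library of the WB pairs and in different libraries of the BM pair.

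A contrast was computed per library as the mean of ARNTL, CLOCK and NPAS2 (a relative of CLOCK) minus the mean of DBP, NR1D1, NR1D2, PER1 and PER2, in log2(TPM + 0.1) with each gene centred on its mean over the libraries. It was 0.15 and 0.25 in WB GOM, -0.64 and 0.62 in WB ULB, -0.59 and 0.25 in BM GOM and -0.05 in BM ULB. WB minus BM was 0.37 in GOM and 0.04 in ULB. The libraries of WB ULB and of BM GOM lay further apart than that and those of WB GOM closer together, and without BM GOM 1 the GOM value was -0.05. With ARNTL and DBP alone the contrast was -0.84 and 0.50 in WB GOM and -1.36 and 1.29 in WB ULB, and 0.30 and -0.71 in BM GOM and 0.82 in BM ULB. The library numbered 1 was the lower of each WB pair and the higher of the BM GOM pair.

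Breeds were compared within GOM by edgeR's quasi-likelihood test on 16615 genes, where a call needed a log2 fold change beyond 1 in either direction together with p below 0.05 after Benjamini-Hochberg adjustment. None of the 9 clock genes was called (0 of 9), against 0.0241% of all genes, and DESeq2 called 0 of 9 as well. At an unadjusted p below 0.05 there was 1 of 9 (8.0% of all genes), NR1D1, with a WB minus BM log2 fold change of -2.83 ± 1.11 (SE) and an edgeR adjusted p of 0.616. Without BM GOM 1 its value was 0.33, so that this 1 library set its direction, as it did for PER1 (-0.32 with it and 0.99 without it) and PER2 (-0.37 and 0.47). CRY2 had a log2 fold change of 0.92 ± 0.40 (edgeR adjusted p of 0.625), ARNTL 0.69 ± 0.43 (0.664), CRY1 0.56 ± 0.43 (0.708) and DBP 0.52 ± 0.57 (0.788). Leaving out 1 library moved these widely, from 0.58 to 1.37 for CRY2, 0.25 to 1.01 for ARNTL, 0.21 to 1.04 for CRY1 and 0.04 to 1.26 for DBP, with the lowest of CRY1, CRY2 and DBP without BM GOM 1 and that of ARNTL without WB GOM 2. CLOCK had -0.61 ± 0.35 (0.645) and NR1D2 -0.42 ± 0.37 (0.745). The median of the 9 was -0.32, beside -0.01 over all genes. These p-values measure only the spread between the libraries, 2 per group, and a p above the threshold does not show that the breeds are alike.

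Levels without overlap were counted too. Both WB libraries lay on the same side of both BM libraries of GOM for 5 of 9 clock genes on the TMM scale, with ARNTL, CRY1 and CRY2 higher and CLOCK and NR1D2 lower in WB, where 41.2% of all genes did so. On the TPM scale it was 2 of 9, CLOCK and NR1D2, both lower in WB, where 53.5% of genes did so, and ARNTL, CRY1 and CRY2 overlapped. Without BM GOM 1 it was 7 of 9 against 67.8% of genes on the TMM scale.

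In ULB the single BM library was compared with 2 WB libraries in a fit over all 7, in which it was assumed to vary like the other groups. Again 0 of 9 clock genes were called by edgeR, against 0.252% of 17877 genes, with 0 of 9 at an unadjusted p below 0.05 (14.9% of all genes) and 0 of 9 called by DESeq2. NR1D1 had a WB minus BM log2 fold change of -2.46 ± 1.18 and PER2 of -1.31 ± 0.63, both with an edgeR adjusted p of 0.356. DBP had 1.17 ± 0.88 (edgeR adjusted p of 0.515), a value that was -0.15 without WB ULB 1, and NR1D2 0.62 ± 0.42 (0.474). ARNTL and CLOCK both had 0.02, with SE of 0.49 and 0.37. NR1D2 was thus lower in WB than BM in GOM and higher in ULB, and the difference between these breed differences was -1.03 ± 0.53 (edgeR adjusted p of 0.97). That interaction was called for 0 of 9 clock genes and for 0% of all genes, with 0 of 9 clock genes and 4.86% of all genes (869 of 17877) at an unadjusted p below 0.05. DESeq2 called 52 genes for it, none of them among the 9.

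Depots were compared across breeds with breed in the model. The 7 libraries came from 4 pigs and were treated as independent, as in the ULB and interaction fits. Values with a replicate block are given below. None of the 9 was called (0 of 9), against 3.58% of 17877 genes, and DESeq2 called 0 of 9 too. NR1D2 was the 1 of 9 at an unadjusted p below 0.05 (19.9% of all genes), with a GOM minus ULB log2 fold change of -0.84 ± 0.30 and an edgeR adjusted p of 0.164, and its DESeq2 adjusted p was 0.0531. CLOCK had -0.53 ± 0.25 (edgeR adjusted p of 0.269) and NR1D1 -0.70 ± 0.74 (0.633), a value that was -1.75 without BM GOM 1 and -0.24 without WB ULB 1. The other 6 had values between -0.35 (CRY2) and 0.41 (PER1). In all 3 number pairs with both depots, GOM was below ULB for CLOCK, NR1D1 and NR1D2 and above it for none, so 3 of 9 clock genes had a single order, where 42.5% of genes did. Without the WB libraries numbered 1 it was 4 of 9, against 60.9% of genes. On the TPM scale 2 of 9 were in a single order, ARNTL and NR1D1, against 33.1% of genes, and BM number 2 had 1.08-fold more CLOCK and 1.16-fold more NR1D2 in GOM than in ULB, against the TMM order.

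**Figure D3:**
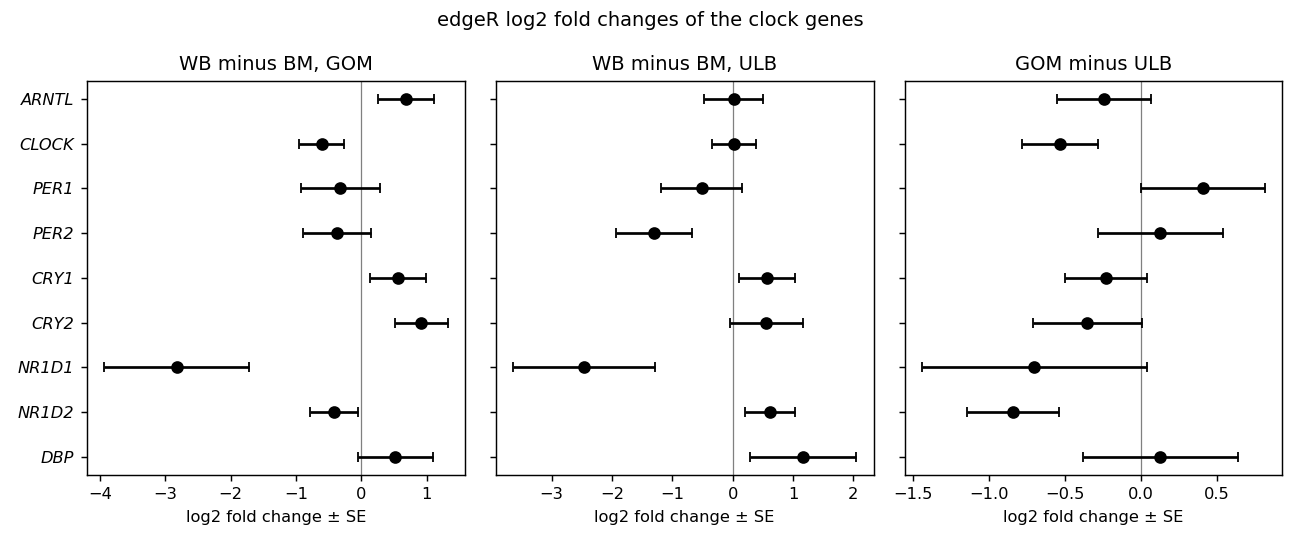
edgeR log2 fold changes (points) with SE (bars) of the 9 clock genes for WB minus BM in GOM, WB minus BM in ULB and GOM minus ULB. Every adjusted p exceeded 0.05, and NR1D1 has the longest bars in all 3 panels.

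Of 20 other clock-related genes with a row (of 21 listed), 1 was called between depots and 0 between breeds in either depot. ARNTL2, a paralog of ARNTL, was at 16.78 and 17.84 TPM in WB GOM, 92.54 and 79.17 TPM in WB ULB, 28.35 and 51.96 TPM in BM GOM and 51.60 TPM in BM ULB. Its GOM minus ULB log2 fold change was -1.60 ± 0.36 (edgeR adjusted p of 0.0397). The E-box repressor BHLHE40 had -1.09 ± 0.28 (edgeR adjusted p of 0.0641), the ROR activator of ARNTL, RORA, -0.92 ± 0.30 (0.131), and the D-box repressor NFIL3 -0.74 ± 0.28 (0.176). In all, 8 of these 20 were at an unadjusted p below 0.05 between depots, 6 lower and 2 higher in GOM, where 19.9% of all genes were. In the other lists 0 of 7 glucocorticoid-responsive genes were called in the 4 comparisons. Between depots the calls were 1 of 6 immediate early genes (FOSB, GOM minus ULB of -2.71 ± 0.61, edgeR adjusted p of 0.0392) and 1 of 10 fasting-responsive genes (ANGPTL4, -1.78 ± 0.39, edgeR adjusted p of 0.0331).

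Hi-C gave a readout of the same loci that does not depend on transcript levels. A compartment score was deposited per 20-kb bin, in which positive values mark compartment A, the open and gene-rich part of the genome. The bin of the start site was positive in every Hi-C library for 10 of 10 clock genes, where 78.5% of 13111 placed genes were. These placed genes were taken without an expression filter, so genes with little or no expression are among them. No clock gene changed compartment between breeds in either depot (0 of 10), where 3.74% of placed genes did. Scores are centred within each chromosome, so those of different chromosomes are given side by side without an order. CRY1 had scores between 5.2 and 14.2 over the 7 libraries, ARNTL between 24.2 and 30.6 and NR1D1 between 27.5 and 33.7. PER1 kept within 42.2 and 44.8, and PER3, not followed as a transcript, within 39.0 and 53.2.

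**Figure D4:**
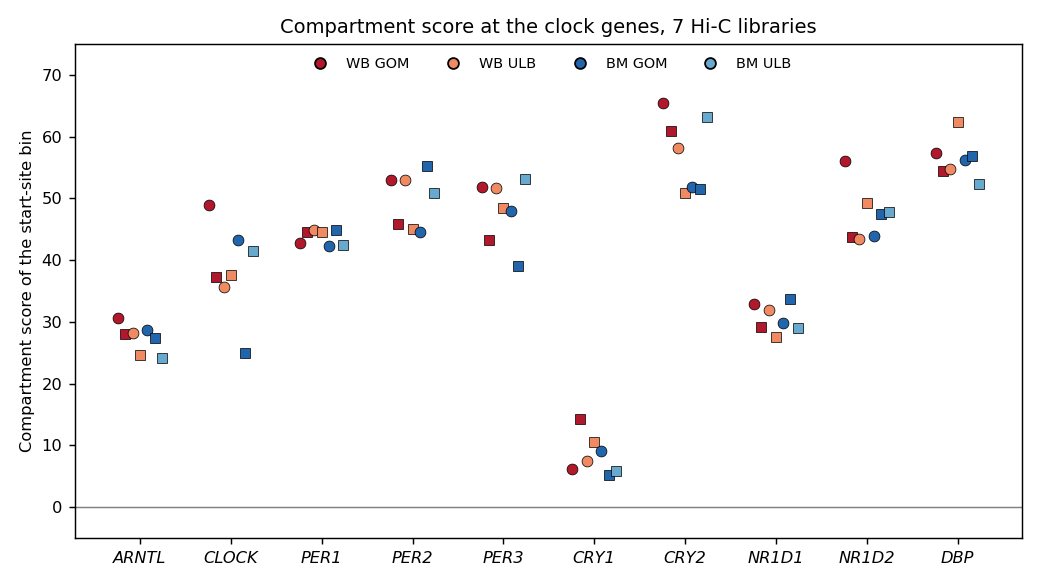
Compartment score of the 20-kb bin that holds the start site of each of the 10 clock genes in the 7 Hi-C libraries (colours by breed and depot, circles for number 1 and squares for number 2, the line at 0 divides A from B). All points lie above 0, those of CRY1 at 5.2 to 14.2.

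Topologically associating domains (TADs, stretches that contact themselves more than their neighbours) had been called by the authors once per breed and depot on merged replicates, so there was no replicate check. The start of CRY1 lay 4.7 kb from a TAD border at the same place in all 4 lists, that of PER1 43.3 kb and that of ARNTL 94.8 kb. The ARNTL domain measured 440, 440, 420 and 440 kb in WB GOM, WB ULB, BM GOM and BM ULB. The PER2 domain measured 900, 140, 640 and 840 kb in the same order. Both borders were within 40 kb of a border in the other breed for 6 of the 7 clock genes that lay in a TAD in both breeds in GOM, all but PER2, where 74.6% of genes did. In ULB it was 3 of 7, without PER1, PER2, CRY2 and NR1D1, where 77.4% of genes did. DBP lay in no listed TAD in any of the 4 lists, and PER3 in a TAD of the WB GOM list only.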

How the data were processed

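RNA-seq and Hi-C of 2 adipose depots from wild boars and Bama pigs were used, 7 libraries each. The authors quantified RNA-seq with Kallisto (0.43.0 in the submitters' processing notes, another version in the methods) on Sscrofa 11.1 and deposited estimated counts and TPM per gene, without normalisation between libraries. The labels and the methods name different ribosomal depletion and library kits. The deposited compartment score per 20-kb bin has a mean of 0 on each chromosome, and whether it is a principal component or an A-B index was not settled. TAD lists were deposited with replicates merged.

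Estimated counts were rounded and tested with edgeR 4.0.16 (TMM, genes with TPM above 0.1 in every library of at least 1 group) and, as an alternative, DESeq2 1.42.0 in R 4.3.3. The edgeR and DESeq2 fits were tested on simulated data. The rule for a compartment change was run on simulated scores far from 0 with planted sign changes. It had to find these by its definition, so that run tells nothing about scores near 0. Between breeds in GOM, edgeR recovered 0% of 2-fold, 20.9% of 4-fold and 65.2% of 8-fold changes, and 5% of its calls were false. DESeq2 recovered 4.5%, 49.3% and 83.3% there, with 30.5% of calls false. For the interaction 31.8% of edgeR calls and 31.9% of DESeq2 calls were false. Between depots edgeR recovered 71.6% of 4-fold changes, with 7.9% of calls false. Start sites and sequence came from the RefSeq annotation of Sscrofa11.1, whose 18 autosome lengths match the Hi-C bins within 1 bin. Motifs were searched on both strands. The 10 genes and all lists were chosen with earlier results of these data known. Genes named beside them came from those lists or were the 5 highest and 5 lowest in Pearson r with ARNTL or DBP. Group membership came from the labels. The counts of non-overlapping genes without BM GOM 1 and of depot order without WB 1, and the comparison of WB numbers, were chosen after seeing the data.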

Additional observations from a re-analysis of the deposited data

How the results depend on the processing

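The count of clock genes called was 0 of 9 in all 4 comparisons under DESeq2, upper-quartile normalisation, both other TPM filters, no fold threshold, the replicate block and the omission of each library whose comparison could still be fitted (the 4 GOM libraries between breeds in GOM, all 7 between depots, and all but BM ULB 2 otherwise). The lowest adjusted p of a clock gene under any of these was 0.0907 between breeds in GOM, 0.0928 in ULB, 0.0531 between depots and 0.378 for the interaction. Counts over all genes moved more, from 4 to 167 with DESeq2, 26 without the TPM filter and 15 with the block between breeds in GOM, from 45 to 418, 197 and 91 in ULB, from 640 to 1399, 999 and 793 between depots and from 0 to 52, 7 and 0 for the interaction. Leaving out 1 library gave 0 to 123, 0 to 106, 230 to 656 and 0 to 1.

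Clock genes without overlap between breeds in GOM fell from 5 to 2 on the TPM scale. Those in 1 order between WB numbers fell from 7 to 4 when a difference above 0.5 was asked. The activator-repressor contrast, WB minus BM, ran from -0.05 to 0.79 in GOM and from -0.59 to 0.67 in ULB when 1 library was left out, and was -0.85 in ULB with ARNTL and DBP alone. Of 272 fold changes of clock genes under an alternative that could move them, 250 kept their direction and their side of the threshold and 22 changed sign, all of them uncalled. Between breeds in ULB, ARNTL and CLOCK (0.02 each) both became -0.12 with upper-quartile normalisation and -0.04 with TPM above 1. Leaving out 1 library gave, between breeds in GOM, -0.88 to 0.47 for PER2, -0.98 to 0.99 for PER1 and -3.73 to 0.33 for NR1D1. In ULB it gave -0.15 to 1.85 for DBP, -0.40 to 1.13 for CRY2, -0.09 to 0.12 for CLOCK and -0.36 to 0.32 for ARNTL. Between depots it gave -0.18 to 0.48 for PER2, -0.68 to 0.04 for CRY2, -0.20 to 0.85 for DBP, -0.01 to 0.65 for PER1 and -0.51 to 0.01 for ARNTL. The causes were not tested. Compartment and TAD counts of the clock genes were the same under their alternatives, while over all placed genes the switched share went from 3.74% to 0.198% with a score of at least 10 and the share with shared TAD borders ran from 67.8% to 82.1% in GOM and from 68.7% to 84.5% in ULB.

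With the replicate block, CLOCK was -0.01 between breeds in ULB and PER2 -0.02 between depots, and no clock gene was called. The block moved NR1D1 from -0.70 to -1.69 between depots (edgeR adjusted p of 0.126), from -2.83 to -1.87 between breeds in GOM and from -2.46 to -3.69 in ULB, and PER2 in ULB from -1.31 to -1.93. The interaction went from -0.36 to 1.66 for NR1D1. The main fits held no term for the pig, and the replicate block was an alternative. Between depots the block was breed together with replicate number. In the breed and interaction fits it was the replicate number alone. There it joined WB and BM libraries of equal number, which come from different pigs, so it is not a term for the pig. Across genes, the WB difference of number 1 minus number 2 had r = 0.154 between GOM and ULB. It had r = 0.15 with the BM difference in GOM, which comes from other pigs. These values cannot settle whether equal numbers mark the same pig, because cell type markers also differed between these libraries. Groups of 1 or 2 libraries and 28 to 717 counts of NR1D1 limit what could be called.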
